A study of Mus musculus with 27 samples.

Results

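The 10 immediate early genes Fos, Fosb, Jun, Junb, Jund, Egr1, Ier2, Atf3, Klf4 and Btg2 were followed through the optic stalk (OS) of Smarcc1-DCT-cKO and control embryos. They were taken by name, through the Ensembl gene identifiers of the count table, which lists 55487 genes. The table held all 10, and 9 passed the filter of more than 10 counts in at least 3 of 27 libraries that 16330 genes passed. Fosb did not pass. Each library came from a dorsal, a ventral or an axon-rich piece of OS cut by laser capture from an embryo at embryonic day 14, and each of 4 control and 5 mutant embryos gave 1 library per region.

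Mutants were Baf155 loxP/loxP (Baf155 is the protein that Smarcc1 encodes), Dct-Cre and Z/EG, and controls were littermates without Dct-Cre, on a C57Bl6/J background. Z/EG is a reporter that turns on eGFP in cells in which Cre has acted. Dct-Cre acts in the presumptive pigment epithelium and, spreading from dorsal to ventral, in the OS, where the study's text describes the deletion as complete by this age. Cells of other lineages in a captured piece are not recombined. The heads were frozen fresh, and the sections were fixed in ethanol and stained with Cresyl Violet before capture. Batch A held 3 mutants and 1 control, and batch B held 2 mutants and 3 controls. The libraries of 1 embryo were matched by genotype and number in the sample titles.

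Immediate early genes are transcribed within minutes of a stimulus, without the need for newly made protein, from factors that already sit at their promoters and are switched on by kinase cascades. Their transcripts are unstable, so a stimulus leaves a brief pulse. Because growth factors, neuronal activity, wounding and tissue dissociation all set them off, they are followed both as readouts of signalling and as signs of handling. Fos and Fosb encode partners of the Jun proteins in the AP-1 transcription factor. Jun, Junb and Jund encode the Jun partners themselves. Egr1 and Klf4 encode zinc finger transcription factors, and Atf3 encodes a stress-induced factor of the ATF/CREB family. Ier2 encodes a nuclear protein induced by growth factors. Btg2 encodes an antiproliferative protein, known in the embryonic brain as a mark of progenitors about to divide into neurons.

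In mm10 coordinates of GENCODE M21, Btg2 lies at chr1:134075170-134079120 on the minus strand and Jun at chr4:95049034-95052222 on the minus strand. Klf4 lies on the same chromosome at chr4:55527143-55532466, minus strand, and Ier2 at chr8:84661331-84662852, minus strand. Fos lies at chr12:85473890-85477273 on the plus strand, Atf3 at chr1:191170296-191218039 on the minus strand and Fosb at chr7:19302696-19310051 on the minus strand. The intronless Jund lies at chr8:70698949-70700616 on the plus strand, and 52.6% of its exonic bases were shared with the gene model Gm11175. For Jun the shared part was 7.28% (Junos) and for Junb, at chr8:84974484-84978718, 7.52% (Prdx2). Reads that fall in such bases can be split or lost in counting, so the level of Jund in particular is uncertain.

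The promoters of 3 members, chosen after their values were seen, are shown beside the patterns in the data: Btg2 for a difference between dorsal groups, Jun for detection in every library and Fos for detection in few. Each run is the 250 bases before the RefSeq start (GRCm38.p6), 5′ to 3′ on the gene's strand. Capitals mark any match, on either strand, to TGACGTCA, the full cAMP response element, to TGANTCA, the AP-1 site, to TATAAA, to GGGCGG, the core of an Sp1 site, to CCAAT or to the CArG box bound by serum response factor.

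Btg2, chr1:134079156-134079405, minus strand: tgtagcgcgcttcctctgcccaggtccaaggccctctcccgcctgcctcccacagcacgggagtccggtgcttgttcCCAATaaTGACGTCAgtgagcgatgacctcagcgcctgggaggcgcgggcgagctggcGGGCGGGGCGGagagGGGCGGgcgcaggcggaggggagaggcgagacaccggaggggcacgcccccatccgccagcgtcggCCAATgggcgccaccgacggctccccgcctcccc

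Jun, chr4:95052223-95052472, minus strand: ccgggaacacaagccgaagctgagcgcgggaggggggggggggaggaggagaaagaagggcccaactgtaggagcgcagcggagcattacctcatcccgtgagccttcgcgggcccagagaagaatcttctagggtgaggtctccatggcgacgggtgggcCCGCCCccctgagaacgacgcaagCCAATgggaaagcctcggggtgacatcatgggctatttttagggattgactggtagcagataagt

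Fos, chr12:85473640-85473889, plus strand: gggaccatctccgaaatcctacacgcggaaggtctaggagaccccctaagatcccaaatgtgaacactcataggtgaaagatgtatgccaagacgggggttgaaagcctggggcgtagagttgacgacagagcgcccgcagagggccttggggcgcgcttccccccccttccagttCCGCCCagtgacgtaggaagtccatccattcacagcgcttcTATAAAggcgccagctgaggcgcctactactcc

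The Btg2 window held 1 TGACGTCA, 162 bases before the start, 3 GGGCGG, of which a pair overlapped, and 2 CCAAT. The Jun window held 1 GGGCGG and 1 CCAAT. The Fos window held 1 TATAAA, 30 bases before the start, and 1 GGGCGG. Of 32851 promoter windows of this length, 1.55% held TGACGTCA, 12.4% TATAAA, 32.7% GGGCGG and 33.8% CCAAT. Neither the CArG box (1.47% of windows) nor TGANTCA (6.75%) matched in any of the 8 members whose promoter was listed. Sites further upstream, variants of these strings and the unlisted promoters of Egr1 and Ier2 were not searched. A match describes letters only and shows no binding.

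The 27 libraries held 10899418 to 33980417 counts, so that 3 counts, taken as the floor of detection, were 0.0883 to 0.275 CPM. CPM is the count per 1000000 counts of the library, uncorrected for length. The number of genes with a count ran from 9225 to 16810 and was 9225 to 11358 in the axon mutants against 10076 to 14118 in the axon controls. Mitochondrial transcripts took 7.49 to 15.4% of the counts in the axon libraries and 3.72 to 7.63% in the dorsal and ventral ones. Smarcc1 itself was 2.26 to 107 CPM in the dorsal mutants against 75.9 to 289 CPM in the dorsal controls, and dorsal mutants 1 and 2, at 94.9 and 107 CPM, lay within the control range. It did not overlap between genotypes in the ventral region (14.7 to 64.4 against 75.7 to 198 CPM) or in the axon region (1.86 to 44.9 against 50.1 to 242 CPM). The markers of the axon label did not all go the same way. The 10 neuron and axon markers summed to 805 to 2139 CPM in the axon libraries against 10.9 to 1533 CPM in the dorsal and ventral ones, but Nefm, a neurofilament subunit, alone made up 79.9% of the axon sum (767 to 1757 CPM, against 0.0707 to 212 CPM). The median marker averaged 10.1 CPM in the axon controls and 0.632 CPM in the axon mutants, against 31.1 and 36.1 CPM in the dorsal and ventral controls. Pou4f2 was at 0 in all 9 axon libraries, but also in 16 of the 18 dorsal and ventral ones, so it does not tell the regions apart. Elavl3 and Elavl4 were at 0 in all 5 axon mutants and each in 4 of the 18 dorsal and ventral libraries. Atf4, a gene most cells express, did not pass 3 counts in any library, so a 0 in these counts is only a listed 0.

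The members differed widely in how often they were counted. Jun and Jund passed 3 counts in all 27 libraries, Ier2 in 23 and Btg2 in 21. Klf4 passed in 11, Egr1 in 8, Junb in 5, Fos and Atf3 in 3 each and Fosb in 1, and the last 5 genes are called sporadic here. For comparison, the median gene that passed the filter was over 3 counts in 20 libraries, and 19.3% of such genes were in all 27. Per kilobase of exon the mean over all libraries was 31.7 CPM for Btg2, 12.3 for Jun, 11.3 for Ier2 and 1.88 for Jund. On that length-corrected scale Atf3 was at 1.17, Egr1 at 0.913, Fos at 0.869, Klf4 at 0.600, Junb at 0.264 and Fosb at 0.0148 CPM.

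**Figure D1:**
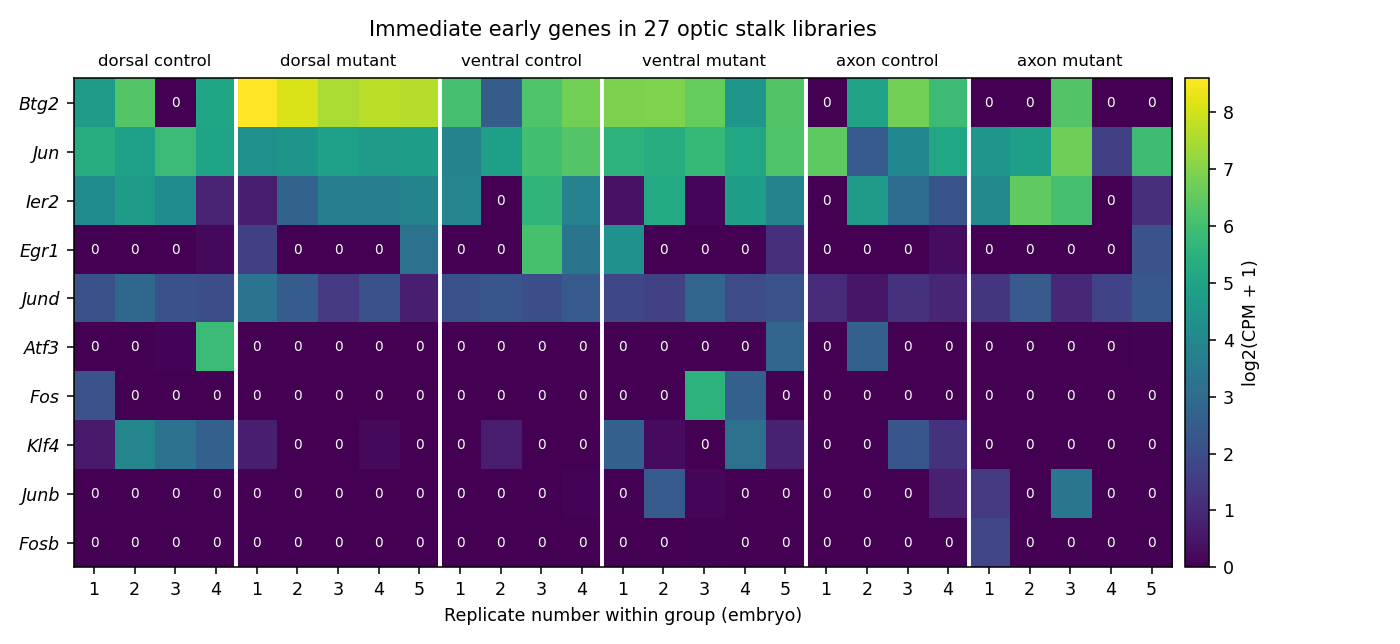
Level of each of the 10 genes (rows, ordered by mean CPM) in each of the 27 libraries (columns, by group and replicate number) as log2(CPM + 1), with a written 0 where the library had no count. Jun and Jund were counted in every library, while Fos, Atf3, Junb and Fosb were at 0 in most and bright in single, different libraries.

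Where the sporadic members were counted they were often counted high. Fos, the classical sign of recent stimulation, was at 0 counts in 24 libraries. It reached 46.4 CPM (1575 counts) in ventral mutant 3, 5.23 CPM (75 counts) in ventral mutant 4 and 3.62 CPM (87 counts) in dorsal control 1. Fosb, its close relative, had 43 counts (2.46 CPM) in axon mutant 1, 1 count in ventral mutant 3 and none elsewhere. The Fos and Fosb peaks thus lay in libraries of different regions and embryos.

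Atf3 reached 56.9 CPM (845 counts) in dorsal control 4, 6.06 CPM in ventral mutant 5 and 5.24 CPM in axon control 2, and had at most 1 count in the other 24. Junb reached 9.38 CPM in axon mutant 3, 4.36 in ventral mutant 2, 1.72 in axon mutant 1, 0.733 in axon control 4 and 0.118 in ventral mutant 3, with at most 1 count elsewhere. No group held either gene in all of its libraries. Both genes respond to stress in many cell types, and here both were over 3 counts in more than 1 region and in both genotypes.

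Egr1, induced by growth factor signalling, was the sporadic member most spread over libraries. It was 66.6 CPM (1166 counts) in ventral control 3, 19.2 in ventral mutant 1, 9.07 in ventral control 4, 8.31 in dorsal mutant 5, 3.64 in axon mutant 5, 2.11 in dorsal mutant 1, 1.22 in ventral mutant 5 and 0.229 in axon control 4. All 3 libraries of mutant 5 were in this set, and 2 of 3 from mutant 1 and from control 4. The remaining embryos had it in 1 library (control 3) or in none (controls 1 and 2, mutants 2, 3 and 4).

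The peaks of the sporadic members seldom fell together, though some met high Ier2 or Jun. Of Fos, Fosb, Junb, Egr1 and Atf3, none was over 3 counts in 11 libraries, 1 in 12 libraries and 2 in 4 libraries, and no library had more. Genes counted in so few libraries would seldom meet even if independent. The expected number was not computed, so these counts do not tell a shared from a separate response. Ventral mutant 3, with the highest Fos, had 0 counts of Egr1 and Atf3 and 3 counts of Ier2. Ventral control 3, with the highest Egr1, had no Fos, Fosb, Junb or Atf3, but it had the highest Ier2 of the ventral libraries (840 counts, 48.0 CPM). Axon mutant 3, with the highest Junb, also had the highest Jun of all libraries (102 CPM) and the second highest Ier2 (66.2 CPM). Dorsal control 4, with the highest Atf3, had no Fos, Fosb or Junb and 2 counts of Egr1.

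**Figure D2:**
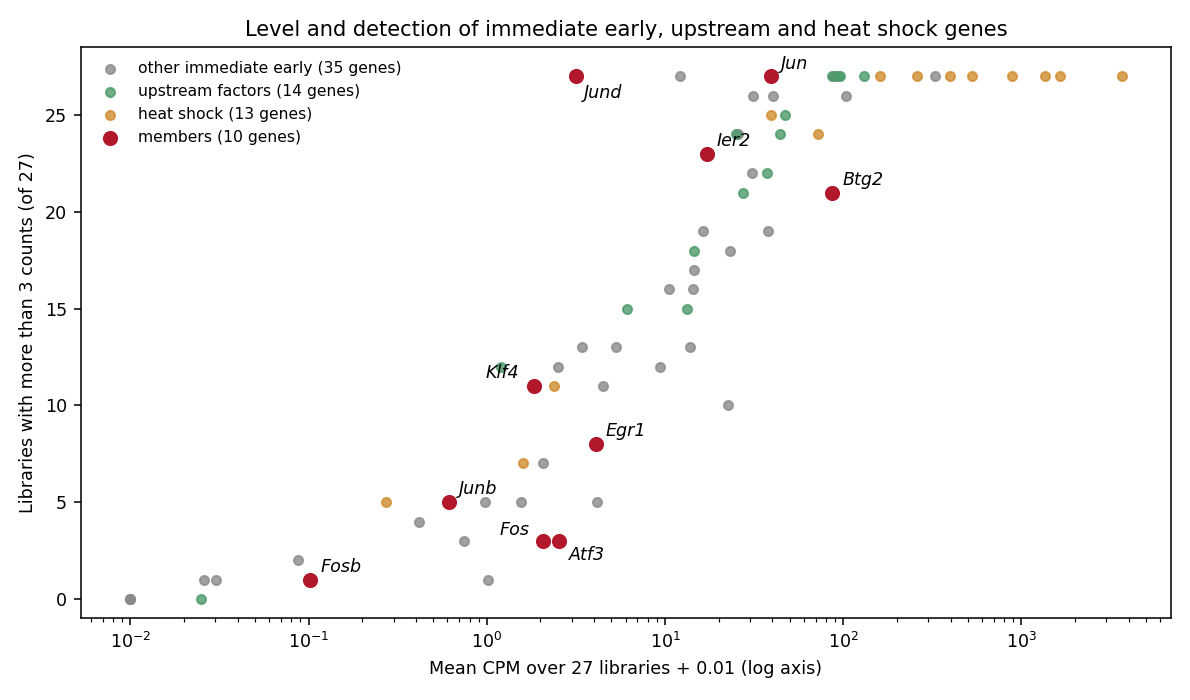
Mean level over the 27 libraries (CPM + 0.01, log axis) against the number of libraries with more than 3 counts, for the 10 members (red) and for other immediate early genes (35), upstream factors (14) and heat shock genes (13). Jun, Jund, Ier2 and Btg2 sit among the widely detected genes, while Fos and Atf3 have means over 1 CPM from 3 libraries each.

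Correlation between the members was weak. Over the 36 pairs of the 9 members that passed the filter, Pearson's r of log2(CPM + 1) over 27 libraries ran from -0.35 to 0.36 with a median of 0.04, and no pair passed 0.5. After the mean of each group was taken off, r ran from -0.43 to 0.49 with a median of -0.02. The highest pair within groups was Btg2 with Junb, and Junb was over 3 counts in only 5 libraries. The points share embryos and library depth, and in counts this sparse such values are descriptions only.

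**Figure D3:**
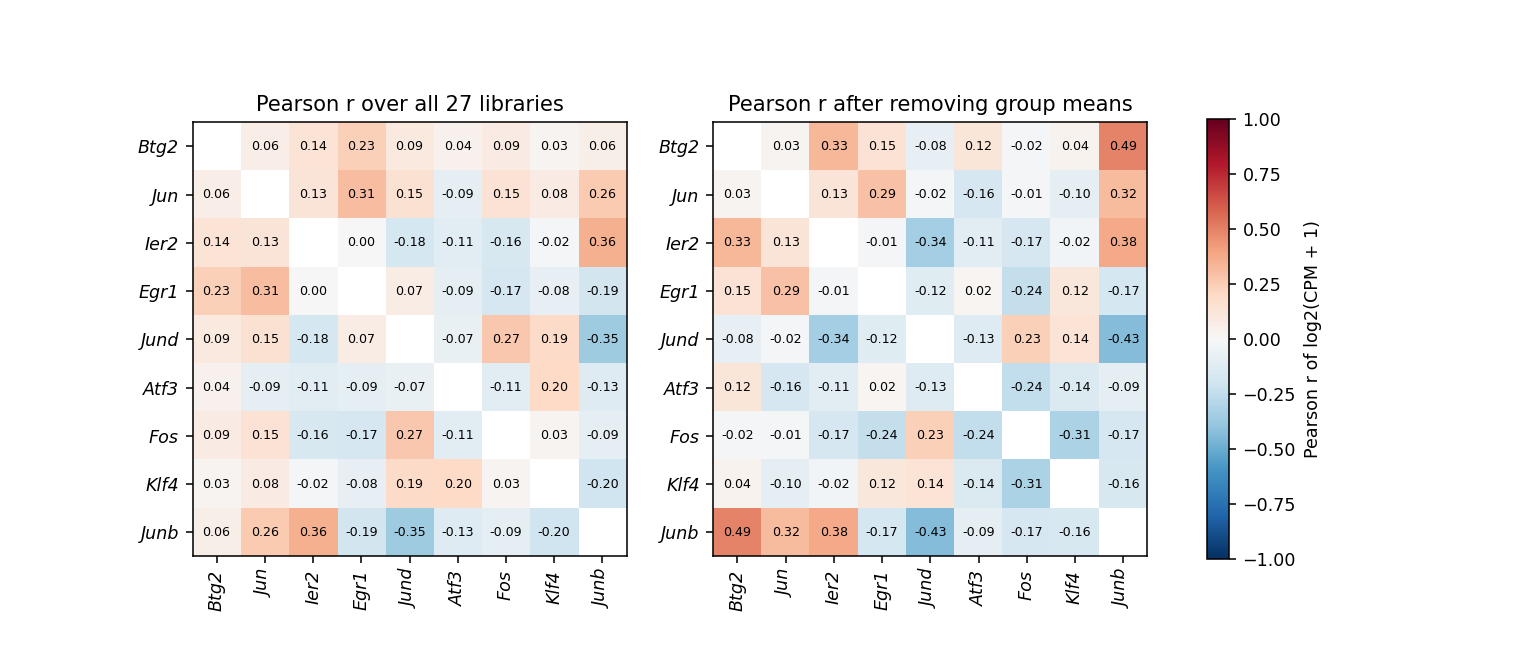
Pearson's r between each pair of the 9 members that passed the filter, from log2(CPM + 1) over 27 libraries (left) and after removal of the 6 group means (right), on a colour scale from -1 to 1. Left, every pair lies between -0.35 and 0.36, and right, between -0.43 and 0.49.

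The genes whose pattern was most like the mean log2(CPM + 1) of the 9 members, among 9344 other genes with a mean of at least 10 CPM, were Tbpl1 (r = 0.77), Mynn (0.77), Bcap29 (0.76), Slc25a46 (0.76) and 3830406C13Rik (0.75), over 27 libraries. The same mean had r = 0.55 with the number of genes detected in a library, -0.48 with the mitochondrial share and -0.06 with the total count. Its r was 0.49 with the summed CPM of the 35 other immediate early genes and -0.09 with that of the heat shock genes. The heat shock sum came mostly from the constitutive Hsp90ab1, Hspa8 and Hsp90aa1. How far library complexity takes part in the shared pattern was not tested.

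In the dorsal region Btg2 was higher in every mutant than in every control. Its level was 25.7, 77.4, 0 and 32.8 CPM in dorsal controls 1 to 4, and 386, 281, 182, 206 and 199 CPM in dorsal mutants 1 to 5. The lowest mutant stood above the highest control, in batch A (25.7 against 182 to 386 CPM) as in batch B (0 to 77.4 against 199 to 206 CPM). The means were 34.0 ± 32.2 CPM (SD, n = 4) in controls and 251 ± 84.8 CPM (SD, n = 5) in mutants, a ratio of 7.38. Neurogenic progenitors are a known site of Btg2 in the embryonic brain, and here it was also counted in ventral and axon libraries.

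The exact permutation test of the dorsal libraries (two-sided) gave p = 0.00794 for dorsal Btg2, the smallest it can give, and an adjusted p of 0.450 over all genes. Kept within batches, the exact permutation gave p = 0.025, again the smallest possible. Groups did not overlap, with mutants higher, for 1 of 8 members against 1.31% of all genes tested, and with mutants lower for 0 of 8 against 1.61%. By edgeR the log2 fold change was 2.87 ± 1.23 (SE), with unadjusted p = 0.0384 and adjusted p = 0.918, so the difference did not pass across all genes. Over 19 alternatives of the fit the adjusted p of dorsal Btg2 ran from 0.00224 to 1.00, and 2 passed the call, the fit with no filter on low counts, which called 0.385% of genes, and the newer edgeR method, which called 0.242%.

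Klf4, a factor of epithelial and progenitor states, lay the other way. It was 0.541, 14.6, 8.26 and 5.18 CPM in dorsal controls 1 to 4 and 0.642, 0, 0, 0.138 and 0 CPM in dorsal mutants 1 to 5. Mutant 1 was above control 1, both of batch A, and the other 3 controls were above all mutants. The exact permutation p was 0.0159 (adjusted 0.506), and 0.05 when kept within batches. By edgeR the log2 fold change was -5.51 ± 4.18 (SE), adjusted p = 1.00.

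Jun was 39.5, 29.5, 56.9 and 30.3 CPM in the dorsal controls and 19.1, 20.6, 29.6, 23.9 and 26.6 CPM in the dorsal mutants. The groups overlapped only in that mutant 3 was just above control 2. The means were 39.1 ± 12.8 CPM (SD, n = 4) and 24.0 ± 4.30 CPM (SD, n = 5), with an exact permutation p of 0.0238 (adjusted 0.582). The edgeR log2 fold change was -0.66 ± 1.04 (SE) with an adjusted p of 1.00.

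Ier2 was 16.6, 25.2, 16.9 and 0.808 CPM in the dorsal controls and 0.642, 5.66, 12.0, 12.1 and 13.6 CPM in the mutants. Controls 1 to 3 were above every mutant, and the groups overlapped through control 4 alone, with an exact permutation p of 0.579. Jund, the Jun protein least dependent on stimulation, was 3.23 to 6.33 CPM in the dorsal controls and 0.665 to 8.62 CPM in the mutants, the wider range being that of the mutants. Fos and Atf3 were at 0 in all 5 dorsal mutants and in 3 and 2 of the 4 controls. Junb and Fosb were at 0 in all 9 dorsal libraries.

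Across the dorsal genotype comparison, 3 of 8 tested members had an exact permutation p under 0.05, against 7.66% of all genes. By edgeR 0 of 8 passed an adjusted p of 0.05 with a log2 fold change over 0.58, where 0.0124% of all genes did. At an unadjusted p under 0.05 edgeR held 1 member (5.35% of genes), DESeq2 called 1 (Fos; 3.3% of genes) and limma voom 0 (0.254% of genes). Fos had counts in 1 of the 9 dorsal libraries, so that call rests on dorsal control 1 alone. In simulated dorsal counts edgeR recovered 36 of 200 genes changed 4-fold (18%) and 98 of 200 changed 16-fold (49%), and DESeq2 also called 449 and 509 unchanged genes. The changed genes were drawn only from levels above the dorsal means of Ier2, Jund, Klf4, Atf3, Egr1 and Fos. Recovery at the levels of these members was not simulated.

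**Figure D4:**
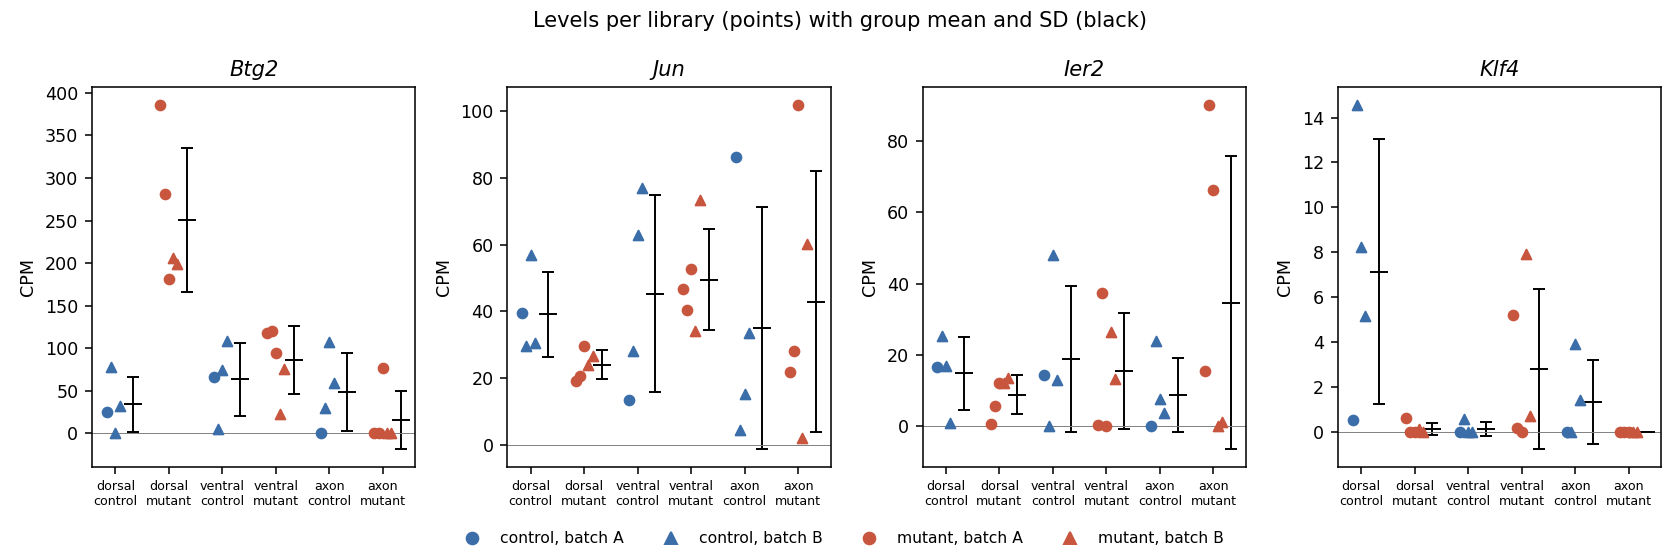
CPM of Btg2, Jun, Ier2 and Klf4 in each library (points, circles for batch A and triangles for batch B, blue for control and red for mutant) with the mean and SD of each of the 6 groups in black, each panel on its own linear axis. The 5 dorsal mutants stand above the 4 dorsal controls for Btg2, and the groups of Ier2 overlap in all regions.

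Marker lists of other cells also differed in level between the dorsal groups. The summed level of 12 mesenchyme markers was 1269 to 10454 CPM (median 2618) in the dorsal controls and 56.5 to 374 CPM (median 124) in the dorsal mutants. All 12 had a negative log2 fold change there (median -3.69, against -0.04 over all genes), 7 had an unadjusted edgeR p under 0.05 and 0 were called. The 8 pigment markers summed to 43.5 to 5003 CPM in the controls and 2989 to 11909 CPM in the mutants, with Gpr143 at 0 in the controls. The 11 optic stalk and astrocyte progenitor markers summed to 2711 to 3607 against 1018 to 1843 CPM. The 8 endothelial markers overlapped, at 273 to 457 against 64.3 to 471 CPM. The part of cell composition in the dorsal values of Btg2, Klf4 and Jun was not tested, and in pieces of tissue fewer cells of a type and less RNA per cell cannot be told apart.

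In the ventral region no member separated the genotypes. Btg2 was 65.7, 4.81, 74.3 and 109 CPM in controls and 118, 121, 94.4, 22.4 and 75.5 CPM in mutants, and Jun was 13.3, 28.0, 62.9 and 76.9 against 46.6, 40.3, 52.8, 34.0 and 73.5 CPM. Both pairs of groups overlapped. Ier2 ranged from 0 to 48.0 CPM in controls and from 0.0883 to 37.3 CPM in mutants.

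Klf4, low in the dorsal mutants, was 5.21, 0.184, 0, 7.95 and 0.735 CPM in the ventral mutants and 0, 0.610, 0 and 0 CPM in the ventral controls. Of 9 members tested, 0 had an exact permutation p under 0.05 (4.12% of genes) and edgeR called 0 (0% of genes), with 0 at an unadjusted p under 0.05 (3.19% of genes). Without overlap there were 0 members with mutants higher (0.52% of genes) and 0 with mutants lower (0.706%). DESeq2 called 1 (Atf3), where it called 2.12% of genes, and limma voom 0 (0.0372%). Atf3 had counts in 1 of the 9 ventral libraries, ventral mutant 5.

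In the axon region Btg2 was 0, 30.0, 108 and 58.9 CPM in controls and 0, 0, 76.3, 0 and 0 CPM in mutants. A count was thus found in 3 of 4 controls and 1 of 5 mutants, with overlap, and the exact permutation p was 0.167. Jun covered 4.42 to 86.3 CPM in controls and 2.10 to 102 CPM in mutants, the widest span it had in any region. Ier2, at 0, 23.8, 7.63 and 3.76 CPM in controls and 15.4, 90.3, 66.2, 0 and 1.29 CPM in mutants, held both its highest value and 2 of its 3 zeros here.

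Klf4 was at 0 in all 5 axon mutants and counted in axon controls 3 and 4, at 3.94 and 1.42 CPM. Jund was 0.436 to 1.31 CPM in the axon controls and 0.952 to 4.26 CPM in the mutants, with an exact permutation p of 0.0714. Of 8 members tested, 0 had an exact permutation p under 0.05 (4.91% of genes). Without overlap there were 0 members with mutants higher (0.24% of genes) and 0 with mutants lower (1.04%). EdgeR called 0 (0% of genes), with 0 at an unadjusted p under 0.05 (3.55% of genes), while DESeq2 called 1 (Btg2), where it called 8.27% of genes, and limma voom 0 (0.3%). The axon region differed from the others in library measures too, as given above.

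Differences between regions were read within embryos. Btg2 was higher in the ventral than in the axon library in 7 of 9 embryos, by 3.21 ± 3.64 (SD) on the log2(CPM + 1) scale, with an exact sign-flip permutation p of 0.0430 (adjusted 0.324). Against the dorsal library the axon library was lower in 7 of 9 embryos, with an exact permutation p of 0.0664. By group mean, Btg2 ran from 251 CPM in dorsal mutants through 86.3 in ventral mutants, 63.4 in ventral controls, 49.1 in axon controls and 34.0 in dorsal controls to 15.3 in axon mutants. Apart from the first step, the libraries of neighbours in that order overlapped.

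Jund was higher in the ventral than in the axon library in 7 of 9 embryos, by 0.78 ± 0.89 (SD) on the same log2 scale. Its exact permutation p was 0.0391 (adjusted 0.307), and 0.0703 with TMM library sizes. In controls alone the ventral libraries were at 3.20 to 4.41 CPM and the axon libraries at 0.436 to 1.31 CPM, without overlap. The share of all genes without overlap in that contrast was not computed. There edgeR gave Jund an unadjusted p of 0.367 and an adjusted p of 0.962. In mutants they overlapped, at 2.15 to 6.03 and 0.952 to 4.26 CPM.

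Klf4 was higher in the dorsal than in the axon library in 6 embryos and in no embryo lower, by 0.86 ± 1.26 (SD), with an exact permutation p of 0.0313 (adjusted 0.283). In 1 of the 6, mutant 4, the dorsal value was 0.138 CPM, under the floor of 0.207 CPM in that library. That p therefore rests in part on a value below detection, and it was not recomputed without it. For Jun, Ier2 and the sporadic members the exact permutation p in the 3 region pairs ran from 0.141 up. Members under 0.05 numbered 0 of 9 for dorsal against ventral (7.67% of genes), 1 for dorsal against axon (14% of genes) and 2 for ventral against axon (14.3% of genes).

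With the embryo as a block, edgeR called 0 of 9 members in any regional contrast. In controls the calls over all genes were 0% for dorsal against ventral, 0.222% for dorsal against axon and 0.0801% for ventral against axon. In controls 0 members had an unadjusted p under 0.05 in any of the 3 (2.81%, 5.71% and 4.28% of genes). Limma voom called 0 there (0.123%, 1.23% and 0.499% of genes), and DESeq2 called 2 (Fos, Atf3), 1 (Fos) and 1 (Atf3), where it called 7.13%, 13.8% and 11.5% of genes. Of the 12 control libraries, Fos was over 3 counts in 1 and Atf3 in 2. In mutants the calls over all genes were 0.0246%, 0.634% and 0.517%, and members with an unadjusted p under 0.05 numbered 0 (3.53% of genes), 1 (11.3%) and 2 (10.4%).

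The member behind most of these was Btg2. In mutants its log2 fold change by edgeR was 11.48 ± 2.92 (SE) for dorsal against axon, with unadjusted p = 0.00173 and adjusted p = 0.127. For ventral against axon it was 9.63 ± 2.87 (SE), with unadjusted p = 0.00518 and adjusted p = 0.250. Only mutant 3 had Btg2 counts in the axon region, and without that embryo the adjusted p by edgeR was 0.00205 and 0.00352, both past the call, where 0.266% and 0.279% of genes were called. Leaving it out removes the only contrary value and leaves an axon group at 0, so this outcome adds no support. Leaving out any other embryo gave no call. DESeq2 also called Btg2 in both contrasts, where it called 21.1% and 19.6% of genes, and so did limma voom (4.21% and 4.27% of genes). The newer edgeR method called it for dorsal against axon (1.23% of genes). Limma voom called it for dorsal against ventral in mutants (adjusted p = 4.21e-05; 0.394% of genes), where DESeq2 called 0 members (5.32% of genes).

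Whether the genotype difference itself varied between regions was asked by the interaction of both in edgeR. It called 0 of 9 members for dorsal against ventral (0.00612% of genes), dorsal against axon (0.0122%) and ventral against axon (0%). At an unadjusted p under 0.05 edgeR held 1 (Klf4), 1 (Btg2) and 2 (Btg2 and Klf4), where 2.29%, 4.95% and 3.89% of genes were. The smallest edgeR value was that of Btg2 for dorsal against axon, with unadjusted p = 0.00796 and adjusted p = 0.855. DESeq2 called 1 member in each, where it called 4.78%, 12.7% and 12.4% of genes, and limma voom 0 (0.0612%, 0.441% and 0.202%).

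A test over all 3 regions together called 0 of 9 members by edgeR, where it called 1.62% of genes, and 0 also at an unadjusted p under 0.05 (13.9% of genes), by DESeq2 (3.21%) and by limma voom (4.21%). Deviation of whole embryos was called by edgeR for 0 of 9 members (0.135% of genes), with 1, Egr1, at an unadjusted p under 0.05 (3.75% of genes). Egr1 had an edgeR adjusted p of 0.990 there. Batch B against batch A, on the 9 embryo sums, called 0 of 9 by edgeR (0% of genes), with 1, Atf3, at an unadjusted p under 0.05 (5.57% of genes). Atf3 had an edgeR adjusted p of 0.893 there. DESeq2 called 0 members in the embryo and batch comparisons (1.3% and 1.22% of genes), and so did limma voom (2.24% and 0%).

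The sum of squares of log2(CPM + 1) was then divided among region, genotype, their interaction, embryo within genotype and the remainder between libraries. The remainder was the greatest share for 9 of 10 members, from 34.4% for Btg2 to 75.9% for Ier2, against a median of 47.3% over genes that passed the filter. The remainder also held the most degrees of freedom, so independent noise alone would tend to make it the greatest share. Klf4 was the exception, with 36.5% in region by genotype and 26.3% in the remainder. Btg2 had 30.7% in region and 24.7% in region by genotype, and Jund had 29.4% in region. Embryo within genotype held 4.31% (Jund) to 36.8% (Egr1), against a median of 25.8% over genes. A shift of all 3 libraries of an embryo would appear in that share, and for 7 of 10 members it was below that median. Independent noise fills part of that share too, so the split does not measure such a shift.

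**Figure D5:**
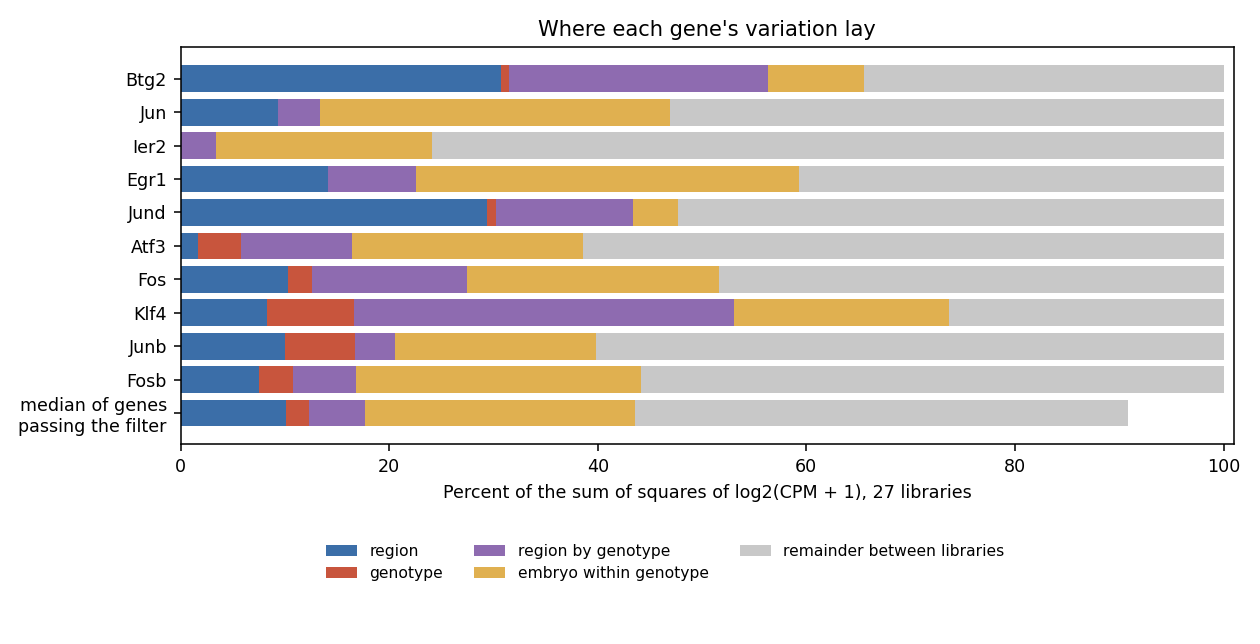
Percent of each gene's sum of squares of log2(CPM + 1) over 27 libraries that lay in region, genotype, their interaction, embryo within genotype and the remainder, for the 10 members and, in the last bar, the median of each share over genes that passed the filter (separate medians need not sum to 100). The grey remainder is the widest part in every member except Klf4.

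Spread between replicates differed by member. The biological coefficient of variation that edgeR fitted was 0.969 for Jun, 1.13 for Jund, 1.68 for Btg2 and 1.71 for Ier2, against a median of 1.90 over genes that passed the filter. It was 2.37 for Klf4, 3.48 for Junb, 3.78 for Egr1, 3.88 for Fos and 4.18 for Atf3, all above that median.

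A further 35 immediate early genes were read in the same way, and 28 passed the filter. Of the 35, 12 were over 3 counts in at most 5 libraries, among them Nr4a1 (4 libraries), Nr4a3 (3), Egr2 (2) and Arc (1), all brief responders to stimulation. Egr4, Fosl1 and Gadd45b were listed at 0 in all 27. At the other end Zfp36l1, a factor that speeds mRNA decay, Btg1, a relative of Btg2, Mcl1, a survival protein, and Rhob passed 3 counts in all 27. The highest means were 326 CPM for Zfp36l1, 104 for Klf6 and 89.9 for Mcl1.

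Of these 28, edgeR called 3 across the 3 regions together, Per1, Zfp36l1 and Ccn1, against the 1.62% of all genes given above, and called none in the other 14 comparisons. Per1, a clock gene with an immediate early response, was at 1.26 to 65.9 CPM in ventral, 0.0416 to 65.0 CPM in dorsal and 0 to 0.0887 CPM in axon libraries (adjusted p = 0.00857). Ccn1, a secreted matrix protein, was over 3 counts in 8 of 9 ventral, 8 of 9 dorsal and 2 of 9 axon libraries (adjusted p = 0.0279). Zfp36l1 was 449 ± 112 CPM in ventral, 298 ± 62.7 in dorsal and 231 ± 74.8 in axon libraries (SD, n = 9 each, edgeR adjusted p = 0.0221), with 55.9% of its exonic bases shared with Gm26669. Leaving out single embryos ended the call for Zfp36l1 (5 of 9 embryos, control 4 and mutants 2 to 5) and Ccn1 (6 of 9, control 4 and mutants 1 to 5), with adjusted p up to 0.0885 and 0.103.

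The summed level of the 35 genes was 524 to 810 CPM in axon controls and 547 to 664 CPM in axon mutants. It was 992 to 1241 CPM in ventral controls and 961 to 1276 CPM in ventral mutants, with no overlap with the axon libraries. In dorsal controls it was 1075 to 1248 CPM and in dorsal mutants 800 to 1239 CPM, the latter overlapping the axon controls. Zfp36l1, the highest of these genes, averaged 449 CPM in ventral and 231 CPM in axon libraries and so took a large part in the gap. By group median, the pigment sum was also lower in the axon than in the ventral libraries of either genotype, and the neuron and axon sum was higher. The heat shock sum, given below, overlapped between all 6 groups. Sums of sets drawn from all genes were not compared. For ventral against axon in controls, 24 of 28 had a positive log2 fold change by edgeR, with a median of 2.24 against 0.38 over all genes, and in mutants 22 of 28, with a median of 2.33 against 0.99. Some of the 28, such as Gadd45g, Plk3 and Per1, were over 3 counts in 0 of 9 axon libraries. These passed the filter through the other regions, so their sign was largely set beforehand. The share of all genes with each sign is not given here, so the counts of signs support no conclusion. In the dorsal genotype comparison 9 were higher and 19 lower in mutants, with a median of -0.85 against -0.04 over all genes and 0 calls.

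The upstream factors, 13 of 14 of which passed the filter, were widely counted. Map2k2, a kinase of the growth factor cascade, averaged 95.6 CPM and Creb1, which binds cAMP response elements, 93.0 CPM. Srf, which binds the CArG box, was over 3 counts in 15 libraries. None of the 13 was called by edgeR in any of the 15 comparisons.

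Among 13 heat shock genes, which also answer to handling, the constitutive Hsp90ab1 averaged 3644 CPM, Hspa8 1642 CPM and Hsp90aa1 1354 CPM, each in all 27 libraries. The inducible Hspa1a averaged 1.59 CPM and was over 3 counts in 7 libraries, and Hspa1b averaged 0.263 CPM and was over 3 counts in 5. By edgeR Hsp90ab1 alone was called, at a log2 fold change of -0.77 for ventral against axon in mutants (edgeR adjusted p = 0.00120) and across the 3 regions (adjusted p = 2.93e-06). Between embryos within genotype edgeR called 0 of the 13, but 4 had an unadjusted p under 0.05 (3.75% of genes), with Hspa8 at an adjusted p of 0.0597 and Hsp90ab1 at 0.116. DESeq2 and limma voom called Hsp90ab1 there (adjusted p = 0.0108 and 1.83e-05). No edgeR setting called it. With embryos tested within genotype and batch, its unadjusted edgeR p was 0.0101, against 0.000283 within genotype alone. The summed level of the 13 genes overlapped between all 6 groups, at 5934 to 11296 CPM.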

How the data were processed

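RNA of laser-captured OS pieces was amplified as cDNA and sequenced (Geo-seq). Per the labels and the study's methods, the authors aligned reads to mm10 with STAR and counted them per gene with HTSeq, without pooling, and deposited raw counts of 55487 genes in 27 libraries. Tool versions, annotation release and strand setting are not given in the sources used here. Without strand, reads of a gene and of an antisense partner cannot be told apart. No molecular identifiers are described, so counts are not molecules and floors cover counting error only.

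Identifiers were named through GENCODE M21 (55227 matched, 260 not). CPM used the column totals (10899418 to 33980417 counts). The test was the quasi-likelihood F-test of edgeR 4.0.16 (R 4.3.3) with TMM scaling, on the 16330 genes that passed 10 counts in 3 or more libraries, and Benjamini-Hochberg adjustment over all genes tested. A call needed adjusted p under 0.05 and, for a single contrast, an absolute log2 fold change over 0.58. Genotypes were compared within each region's 9 libraries with batch as a term, regions with the embryo as a block. Libraries of different regions of 1 embryo deviated from their group means with a median r of 0.04 over 27 pairs, against -0.01 over 96 pairs of different embryos. The block rests on the shared embryo, not on these values. Exact permutation tests used log2(CPM + 1) over all genes. Replicates are separate embryos per the labels and methods, and the samples whose titles share genotype and number were taken as 1 embryo.

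The 10 members and the other lists were chosen with earlier results of these data known, so no list gives independent support. Named besides the members were the 5 genes most correlated with their mean and, of each list, up to 3 genes called and the 3 highest (1 of which is not reported here), with single genes added after their values were seen (Rhob, Srf, Nr4a1, Nr4a3, Egr2, Arc, Egr4, Fosl1, Gadd45b, Atf4, Btg1, Hspa1a, Hspa1b). DESeq2 1.42.0, limma voom 3.58.1 and other settings were alternatives. The steps were tested on simulated data with 200 changed genes. Promoter windows came from RefSeq (GRCm38.p6), which listed 8 of the 10 members. Columns used were the 27 libraries only.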

Additional observations from a re-analysis of the deposited data

Results flagged for a closer look

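In groups of 4 or 5 libraries, 1 library stood far from the others, by Dixon's test, for 18 of 43 combinations of member and group (41.9%), in 16 libraries, where chance marks about 1 in 20. Most were single counted libraries among zeros, for which the test says little beyond that. For Fos these were dorsal control 1 (3.62 CPM) and ventral mutant 3 (46.4 CPM), and for Fosb axon mutant 1 (2.46 CPM). For Junb they were ventral mutant 2 (4.36 CPM), axon control 4 (0.733 CPM) and axon mutant 3 (9.38 CPM). For Egr1 they were dorsal mutant 5 (8.31 CPM), ventral control 3 (66.6 CPM), ventral mutant 1 (19.2 CPM), axon control 4 (0.229 CPM) and axon mutant 5 (3.64 CPM).

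For Atf3 the libraries were dorsal control 4 (56.9 CPM), ventral mutant 5 (6.06 CPM) and axon control 2 (5.24 CPM). For Klf4 they were dorsal mutant 1 (0.642 CPM) and ventral control 2 (0.610 CPM). Btg2 stood out in axon mutant 3 (76.3 CPM), the only axon mutant with a count. Jund, counted everywhere, stood out in dorsal control 2 (6.33 CPM). Jun and Ier2 gave none.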

How the results depend on the processing

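In the 15 comparisons edgeR called 0 members, and other settings gave the following counts. DESeq2 called 1 in each genotype comparison (dorsal Fos, ventral Atf3, axon Btg2), 2 for dorsal against ventral in controls, 1 in both axon contrasts of controls, 1 in both axon contrasts of mutants and 1 in each of the 3 interactions, in comparisons in which it called 342 to 3427 genes. Fos in the dorsal and Atf3 in the ventral region each had counts in 1 library only. Limma voom called 1 (Btg2) in each of the 3 region contrasts in mutants. Without a filter on low counts Btg2 was the 1 call for dorsal genotype (adjusted p = 0.00224), and the newer edgeR method called it for dorsal genotype (1 call, 0.0459) and for dorsal against axon in mutants (1 call, 0.00786). Leaving out 1 embryo gave 0 to 1 calls for dorsal and for ventral against axon in mutants and 0 in the other comparisons. The 1 call came without mutant 3, the only axon mutant with a Btg2 count.

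Of 634 alternatives for single values, 607 were counted as unchanged, 13 passed the threshold and 14 lost it, and 42 that were not called changed sign. The unchanged ones include mean CPM of the members under other scalings, which have no threshold. Those were counted as unchanged when they moved by less than the SD over the 27 libraries, a lenient rule. The losses were 12 of Zfp36l1 and Ccn1 across regions (adjusted p 0.0539 to 0.103), dorsal Klf4 within batches (exact permutation p = 0.05) and Jund with TMM library sizes (0.0703). On log2(CPM + 0.1) the remainder between libraries was the greatest share for 8 members in place of 9.

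With the replicate number as a block, genotype fits called 0 members and 0 genes, against 2 genes in the dorsal fit as reported. These numbers pair different animals. Without the embryo block the regional fits called 0 members, while calls over all genes went from 265 to 625 for the 3 regions together, from 84 to 136 for ventral against axon in mutants and from 36 to 17 for dorsal against axon in controls. DESeq2 called 3427 genes for dorsal against axon in mutants, where edgeR called 103. With 4 and 5 embryos and sporadic counts, a difference that edgeR did not call is not shown to be absent.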
